A study of Danio rerio with 10 samples.

Results

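Translation initiation factors (eIFs) and elongation factors (eEFs) were followed as a group in zebrafish that lack Rpgrip1l, a transition zone protein of the cilium, and in wild-type (WT) zebrafish. The group holds every gene whose zebrafish symbol begins with eif1 to eif6, eef1 or eef2, in any letter case. By this rule 83 of the 32057 genes in the count tables were members, 65 named as initiation factors and 18 as elongation factors. RNA from whole animals was sequenced in 10 libraries, 2 for each of 5 groups: rpgrip1l-/- at 5 days post fertilization (dpf), WT at 5 dpf, rpgrip1l-/- with a curled-down tail (CDT) at 2 dpf, rpgrip1l-/- with a normal-looking tail at 2 dpf and WT at 2 dpf. Every library came from a pool of 30 to 35 animals, and no agent was given to any group. The mutants carry 1 CRISPR/Cas9 allele of rpgrip1l and came from crosses between homozygous mutants, whereas WT came from crosses of the AB strain, so genotype and parents cannot be told apart. The labels do not give the tail form of the mutants at 5 dpf.

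Translation begins when eIF2 brings the initiator tRNA to the small ribosomal subunit, where eIF1, eIF1A and the large eIF3 complex hold it ready for a start codon. The messenger RNA is recruited through its cap by eIF4E, which the scaffold eIF4G links to the helicase eIF4A and to eIF3. The step is braked by the eIF4E-binding proteins (4E-BPs), which compete with eIF4G for eIF4E, and by kinases that phosphorylate eIF2. During elongation eEF1A delivers aminoacyl-tRNAs, the eEF1B complex reloads eEF1A with GTP, and eEF2 moves the ribosome along the message. Zebrafish carry extra copies of several of these genes from the genome duplication of teleost fish. Here 16 members share 8 symbols, and such copies are told apart below by identifier. Whether they stem from that duplication was not examined.

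The libraries held 9101264 to 17536165 counts on genes, with a median of 13962408.5. The targeted gene, rpgrip1l, had 11 and 24 counts in rpgrip1l-/- and 21 and 22 in WT at 5 dpf, and 36 and 18 with CDT, 22 and 27 with a normal tail and 20 and 26 in WT at 2 dpf, so its transcript did not check the labels. Markers of skeletal muscle, neurons, exocrine pancreas, liver, red blood cells, lens and proliferating cells were detected. At 2 dpf, the trimmed mean of M values (TMM) scaling factors, which bring the libraries to a common level of typical genes, were 1.17 to 1.22 in the 4 mutant libraries and 0.815 and 0.840 in WT. With library size alone in place of TMM, the median log2 fold change over all genes moved to 0.48 from 0.03 for CDT against WT and to 0.46 from 0.01 for normal tail against WT. It moved to 0.10 from 0.00 for the genotypes at 5 dpf, to −0.32 from 0.00 for the ages in rpgrip1l-/- and to −0.36 from 0.06 for the difference between the genotype effects. The fold changes below use TMM and are to be read relative to the typical gene. Levels are given in CPM, the counts of a gene scaled to a fixed library total on TMM-scaled library sizes. The CPM and the TMM factors above were computed over all 10 libraries, whereas fold changes within an age come from fits of that age alone. Ratios of CPM can therefore differ somewhat from the printed fold changes.

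The members together took 3.412% and 3.46% of all counts in rpgrip1l-/- and 3.301% and 3.438% in WT at 5 dpf. At 2 dpf they took 2.65% in both CDT libraries, 2.58% and 2.60% with a normal tail and 2.61% and 2.56% in WT. The share was thus larger in every library at 5 dpf than at 2 dpf, and the genotypes were close together at each age. A single elongation factor gene, eef1a1l1, which encodes eEF1A, accounted for 40.6% to 41.1% of the members' counts at 5 dpf and for 34.7% to 35.9% at 2 dpf.

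At 2 dpf lower translation factors outnumbered higher ones in both kinds of rpgrip1l-/- animals relative to WT with TMM. The reverse held with library size alone, where most of all genes called were higher too. The 5 eIF4G scaffold genes and the largest eIF3 subunit were higher, and EIF3F, EEF1AKMT1, eef1da, EEF1B2 and a 4E-BP gene lower, under both scalings. Library size alone moved typical genes up, so only the lower calls were put to a test by it. In CDT animals 43 of 78 tested members were lower than in WT and 8 were higher (edgeR quasi-likelihood test, Benjamini-Hochberg adjusted p under 0.05). Of all 19636 genes 40.5% were called, 20.4% lower and 20.0% higher. In animals with a normal tail 37 of the 78 were lower and 9 higher, against 39.6% of all genes called, 20.4% lower and 19.2% higher. The median log2 fold change of the members was −0.27 with CDT and −0.24 with a normal tail, beside 0.03 and 0.01 for all genes. Both comparisons use the same WT libraries. The libraries of the groups did not overlap for 68 members in CDT against WT, where 69.8% of all genes did not overlap, and for 67 members in normal tail against WT, where the share of all genes was 69.6%. Under library size alone 29 members were higher and 5 lower in CDT than in WT, and 30 higher and 6 lower with a normal tail. Of all 19636 genes on that scaling 11136 were called with CDT, 10214 of them higher. With a normal tail 10730 were called, 9733 of them higher. The median of the members there was 0.18 with CDT and 0.21 with a normal tail, beside 0.48 and 0.46 for all genes. Under both scalings 5 members were lower and 8 higher with CDT, and 6 were lower and 9 higher with a normal tail. The 8 and 9 are all the members called higher with TMM, which a scaling that moves genes up does not test. The counts of lower and higher members here are therefore not to be set against each other. Without WT replicate 2, the number of members called in CDT against WT was 33. The 5 members not tested at 2 dpf for low counts were eef1a1l3, eef1a2, eef2a.2, EIF4E1B and the EIF3B copy ENSDARG00000074213.

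**Figure D1:**
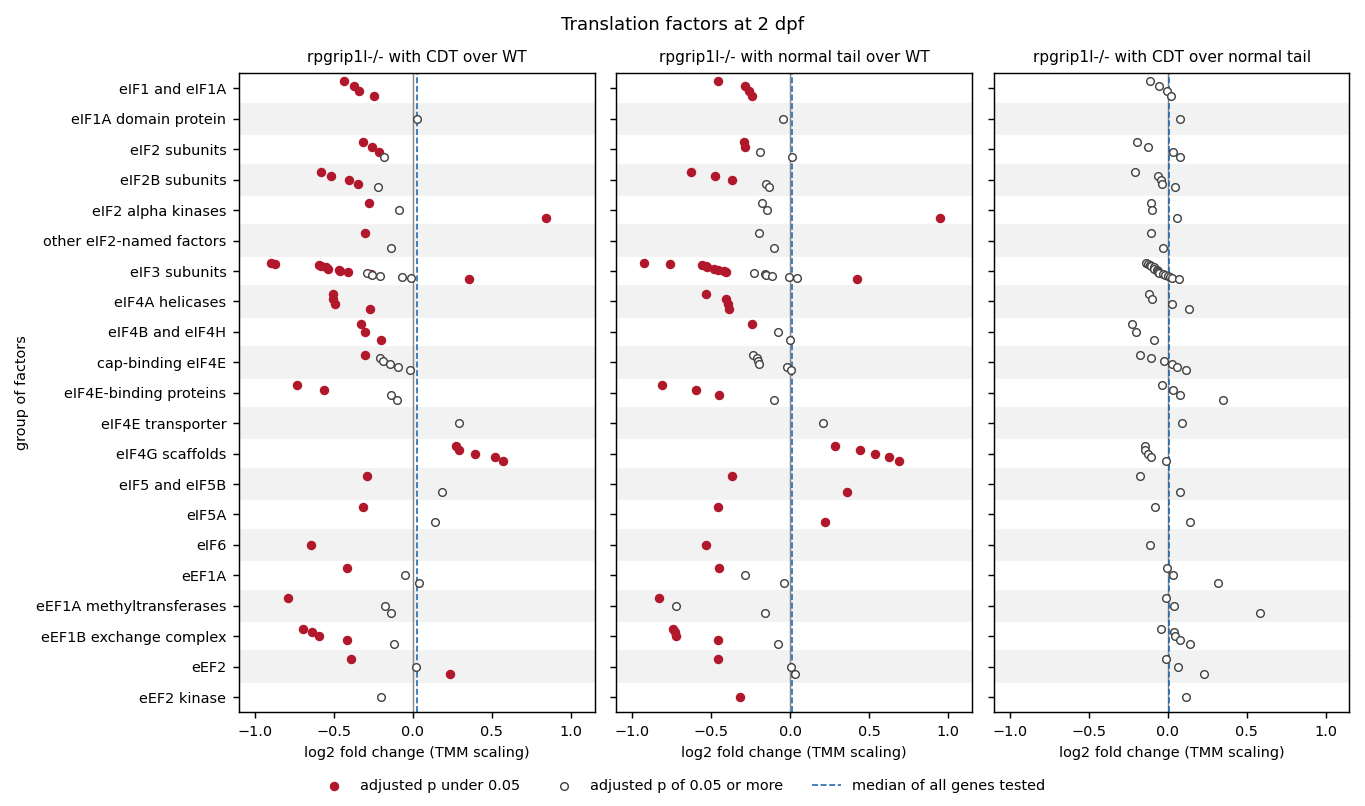
Each point is a translation factor gene, placed by its log2 fold change at 2 dpf on TMM scaling (x axis) and its group of factors (y axis). Panels show rpgrip1l-/- with CDT over WT, rpgrip1l-/- with normal tail over WT, and CDT over normal tail, with filled points at an adjusted p under 0.05 and a dashed line at the median of all genes tested. The 5 eIF4G scaffolds lie to the right of 0 in both mutant panels, most other points lie to the left, and no point is filled in the panel of CDT over normal tail. Values with library size alone are not drawn. There the 5 scaffolds were also higher, and most other members were higher as well, as was the median of all genes.

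The scaffold eIF4G brings eIF4E, eIF4A and eIF3 together on the message. All 5 of its genes were higher in both mutant groups than in WT. Their log2 fold changes ran from 0.27 to 0.57 with CDT and from 0.29 to 0.69 with a normal tail. All 5 were also called higher with library size alone. That scaling moved the medians of all genes up, to 0.48 and 0.46, so it was no test of higher genes. EIF4G1 had 70.2 and 59.2 CPM with CDT and 73.1 and 66.6 CPM with a normal tail, against 48.3 and 46.8 CPM in WT. Every mutant library was above both WT libraries. The log2 fold change of EIF4G1 was 0.52 (SE 0.10, with an adjusted p of 2.32e-05) with CDT and 0.62 (SE 0.10, with an adjusted p of 1.13e-06) with a normal tail. The EIF4G3 copy ENSDARG00000077215 had 13.1 and 9.97 CPM with CDT and 14.4 and 11.1 CPM with a normal tail, against 8.86 and 7.51 CPM in WT. It was higher by 0.57 (SE 0.17, with an adjusted p of 0.00693) and 0.69 (SE 0.18, with an adjusted p of 0.00140) on the log2 scale. It lost its call without CDT replicate 1 (0.35), without WT replicate 2 (0.46) and with DESeq2 (adjusted p = 0.0667) for CDT. For normal tail it lost its call without normal-tail replicate 1 (0.51). The other EIF4G3 copy, ENSDARG00000074331, had 14.4 and 13.7 CPM with CDT and 15.8 and 15.3 CPM with a normal tail, against 13.1 and 9.20 CPM in WT. The log2 fold changes of 0.40 and 0.54 became 0.17 and 0.32, both without a call, when WT replicate 2 was left out. Without CDT replicate 1 its value in CDT against WT was 0.35, again without a call, as with DESeq2 (adjusted p = 0.165) and in the fit of all 10 libraries (0.32, adjusted p = 0.133). The 2 EIF4G2 genes encode a relative of eIF4G that lacks the site for eIF4E. The EIF4G2 copy ENSDARG00000020377 had 147 and 142 CPM with CDT and 159 and 162 CPM with a normal tail, against 122 and 127 CPM in WT. The log2 fold changes were 0.29 and 0.44, and the CDT value lost its call without WT replicate 1 (0.26) and in the fit of all 10 libraries (0.22). For the EIF4G2 copy ENSDARG00000057167 the log2 fold changes were 0.27 and 0.29. Each lost its call when WT replicate 1 or WT replicate 2 was left out (0.28 and 0.26 with CDT, 0.29 and 0.28 with a normal tail). It was also lost without CDT replicate 1 (0.21) for CDT and without normal-tail replicate 2 (0.28) for normal tail, and for both in the fit of all 10 libraries (0.20 and 0.21).

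The eIF3 complex is a many-subunit platform on the small ribosomal subunit. Of its 16 tested genes 10 were lower and 1 was higher in CDT animals than in WT, and 9 were lower and 1 higher with a normal tail. Under library size alone the counts were 1 lower and 4 higher, and 1 lower and 5 higher. EIF3F, a subunit with an MPN fold, had 422 and 458 CPM with CDT and 443 and 424 CPM with a normal tail, against 884 and 848 CPM in WT. The 4 mutant libraries all lay below both WT libraries. EIF3F fell by 0.90 on the log2 scale with CDT (SE 0.08, adjusted p = 2.25e-12) and by 0.92 with a normal tail (SE 0.08, adjusted p = 9.85e-13). It was also called lower with library size alone (−0.45 and −0.47), as was no other eIF3 gene. The partner MPN subunit EIF3H has 2 genes here. The copy ENSDARG00000036116 had 5.43 and 4.64 CPM with CDT and 5.47 and 5.44 CPM with a normal tail, against 8.93 and 10.6 CPM in WT. Its values relative to WT were −0.87 (SE 0.19, with an adjusted p of 0.000266) and −0.76 (SE 0.20, with an adjusted p of 0.00171) on the log2 scale. Under library size alone these were −0.42 and −0.31, both without a call. EIF3A, the largest subunit, went the other way, with 217 and 205 CPM with CDT and 215 and 227 CPM with a normal tail, against 174 and 174 CPM in WT. Its log2 difference from WT was 0.36 (SE 0.08, with an adjusted p of 0.000566) with CDT and 0.42 (SE 0.08, with an adjusted p of 6.8e-05) with a normal tail. It was also called higher with library size alone, where the median of all genes moved up as well. The other eIF3 genes called with TMM had log2 fold changes from −0.60 to −0.26 with CDT, and from −0.56 to −0.41 with a normal tail, all lower than in WT. EIF3CL and the EIF3B copy ENSDARG00000059654 were not called. EIF3CL had 158 and 133 CPM with CDT and 154 and 149.6 CPM with a normal tail against 156 and 154 CPM in WT.

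The factors that carry and recharge the initiator tRNA were mostly lower in the mutants with TMM, but not with library size alone. All 4 genes of eIF1 and eIF1A, which scan for the start codon, were lower in both mutant groups. Their log2 fold changes ran from −0.44 to −0.24 with CDT and from −0.46 to −0.24 with a normal tail. Of the 4 eIF2 subunit genes 3 were lower with CDT and 2 with a normal tail. Of the 5 genes of eIF2B, the exchange factor that reloads eIF2 with GTP, 4 were lower with CDT and 3 with a normal tail, with medians of −0.40 and −0.37. None of these 13 genes was called lower with library size alone, where 4 of them were called higher with CDT and 4 with a normal tail. The kinases of eIF2 stop initiation under stress, and 3 of them were members. eif2ak2, the kinase known in mammals as PKR, which senses double-stranded RNA, had 2.30 and 2.67 CPM with CDT and 2.51 and 2.82 CPM with a normal tail, against 1.41 and 1.502 CPM in WT. These values rest on 27 to 43 counts per mutant library and 18 and 16 counts in WT. All 4 mutant libraries were above WT, with log2 fold changes of 0.84 (SE 0.35, with an adjusted p of 0.0484) and 0.95 (SE 0.36, with an adjusted p of 0.0290). The CDT value lost its call when any 1 of the 6 libraries was left out, with a range of 0.74 to 0.94. The normal-tail value lost it when either of the normal-tail or either of the WT libraries was left out, with a range of 0.86 to 1.02. With DESeq2 the adjusted p was 0.181 and 0.124, and in the fit of all 10 libraries 0.0935 and 0.0605. EIF2AK3, the kinase PERK of the endoplasmic reticulum, had 26.6 and 23.7 CPM with CDT and 28.7 and 25.6 CPM with a normal tail, against 31.9 and 32.5 CPM in WT. Its call in CDT, at a log2 fold change of −0.28 with an adjusted p of 0.0444, turned to 0.18 with library size alone. It was also lost when any 1 of 5 libraries was left out, CDT replicate 1 excepted (−0.29 to −0.19). The call was absent with DESeq2 (adjusted p = 0.1205), upper quartile scaling (0.104), no filter on low counts (0.0609) and at least 10 counts in every library (0.0728). eif2ak1, the kinase regulated by haem, had 16.2 and 15.6 CPM with CDT and 14.7 and 15.9 CPM with a normal tail, against 18.2 and 17.5 CPM in WT, and was not called in either comparison.

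Around the cap, the genes grouped by symbol as eIF4A helicases were lower with TMM and few eIF4E genes were called. eIF4A unwinds the start of the message, which need not hold for every gene of that name, such as EIF4A3. All 4 eIF4A genes were lower in both mutant groups, with medians of −0.50 with CDT and −0.40 with a normal tail. None was called with library size alone. Of the 3 genes of their helpers eIF4B and eIF4H 3 were lower with CDT and 1 with a normal tail. On library size alone, 1 was higher with CDT and 3 with a normal tail. Of the 6 tested genes for eIF4E and its relatives, eif4e2rs1 was lower in CDT than in WT, and none was called with a normal tail. It had 30.8 and 31.1 CPM with CDT and 34.6 and 32.4 CPM with a normal tail, against 40.4 and 40.2 CPM in WT. The CDT value of −0.30 (SE 0.10, with an adjusted p of 0.0168) on the log2 scale was 0.15 with library size alone. It lost its call with DESeq2 (adjusted p = 0.0525) and without WT replicate 1 (−0.30) or WT replicate 2 (−0.31). The other tested eIF4E genes were not called in either comparison. EIF4E had 27.1 and 30.8 CPM with CDT and 26.4 and 27.1 CPM with a normal tail, against 33.9 and 31.2 CPM in WT. EIF4E2, whose mammalian counterpart binds the cap without starting translation, had 20.3 and 19.9 CPM and 19.9 and 19.0 CPM, against 23.0 and 24.0 CPM in WT. EIF4E3 had 47.4 and 52.2 CPM and 51.1 and 50.3 CPM, against 50.2 and 56.4 CPM in WT, so that its groups overlapped. For eif4e1c the levels were 52.7 and 59.6 CPM and 65.6 and 61.4 CPM, against 69.4 and 65.6 CPM in WT. For eif4eb they were 14.8 and 15.7 CPM and 14.8 and 15.2 CPM, against 18.1 and 19.1 CPM in WT. EIF4E1B was close to absent, with at most 3 counts in any of the 10 libraries.

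The 4E-BPs hold eIF4E away from eIF4G until the kinase complex mTORC1 phosphorylates them. The EIF4EBP3 copy ENSDARG00000041607 had 46.7 and 55.3 CPM with CDT and 44.1 and 52.0 CPM with a normal tail, against 85.6 and 93.0 CPM in WT. No mutant library reached the level of either WT library. The log2 fold changes of −0.73 (SE 0.10, with an adjusted p of 2.28e-08) and −0.81 (SE 0.10, with an adjusted p of 2.82e-09) were also called with library size alone (−0.28 and −0.36). eif4ebp1 had 118 and 132 CPM with CDT and 121 and 123 CPM with a normal tail, against 207 and 182 CPM in WT. It was lower in both mutant groups, at −0.56 (SE 0.09, with an adjusted p of 7.77e-07) and −0.60 (SE 0.09, with an adjusted p of 2.52e-07). It was not called with library size alone, at −0.11 and −0.15. EIF4EBP2 was not called, with 341 and 357 CPM with CDT and 359 and 358 CPM with a normal tail, against 413 and 397 CPM in WT. The second EIF4EBP3 copy, spelled eif4ebp3 (ENSDARG00000054916), had 8.26 and 8.77 CPM with CDT and 6.12 and 7.15 CPM with a normal tail, against 10.03 and 9.20 CPM in WT. Its normal-tail call, −0.45 (SE 0.18, with an adjusted p of 0.0436), was lost when either normal-tail library (−0.36 and −0.58) or either WT library (−0.38 and −0.52) was left out. With library size alone its value was −0.00251 (adjusted p = 0.992). The call was likewise absent with DESeq2 (adjusted p = 0.157), upper quartile scaling (0.0757), no filter on low counts (0.0546) and at least 10 counts in every library (0.0609).

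**Figure D2:**
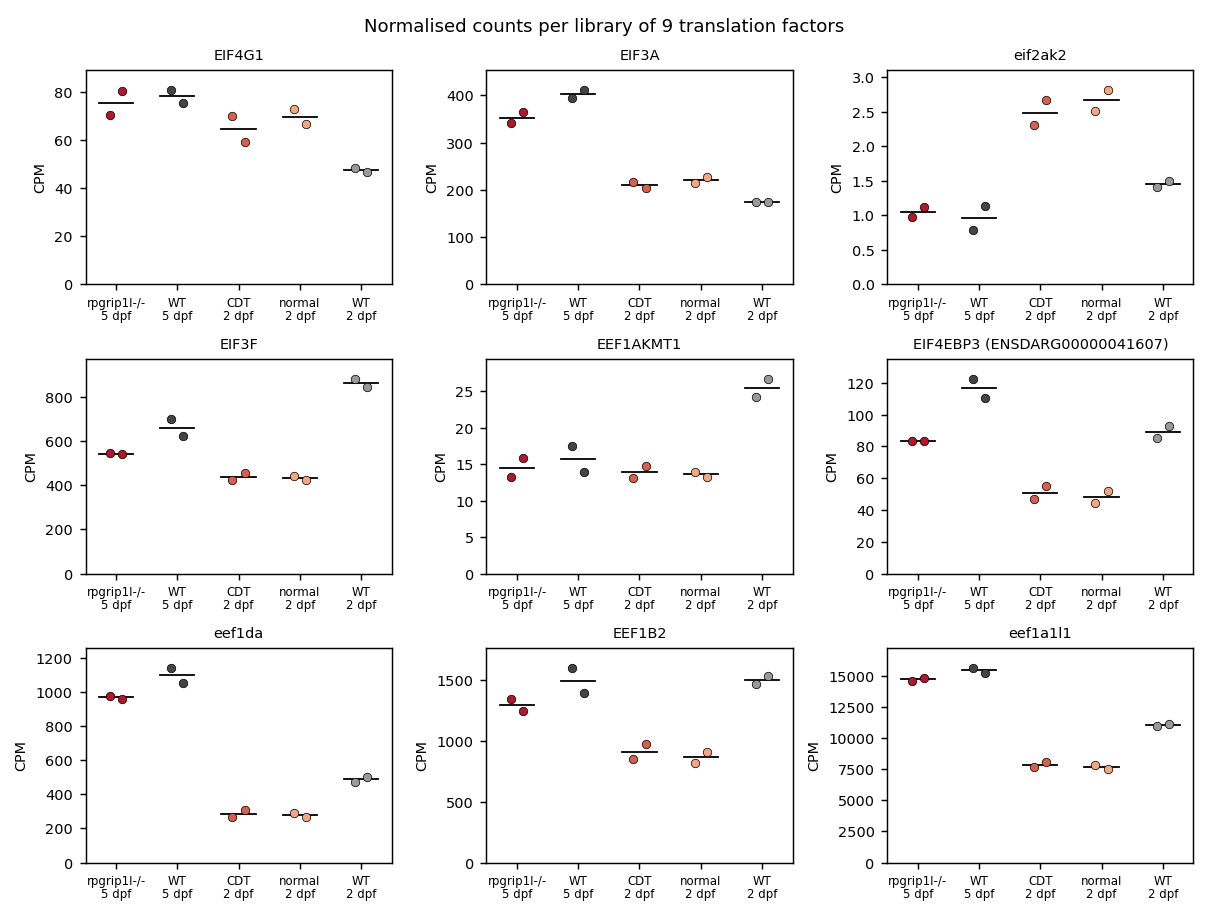
TMM-scaled CPM (y axis, from 0) of 9 translation factor genes in each of the 10 libraries (points) with the mean of the 2 libraries of a group (line). Groups along the x axis are rpgrip1l-/- and WT at 5 dpf, and CDT, normal tail and WT at 2 dpf. EIF4G1, EIF3A and eif2ak2 are above WT in the 4 mutant libraries at 2 dpf, and the other 6 genes are below WT there. With library size alone, which is not drawn, eef1a1l1 was not lower.

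Among the late initiation factors, EIF6, whose protein keeps the large ribosomal subunit from joining too early, had 41.9 and 47.6 CPM with CDT and 52.1 and 45.2 CPM with a normal tail, against 72.0 and 75.6 CPM in WT. It was lower in both, at −0.65 (SE 0.10, with an adjusted p of 3.59e-07) and −0.53 (SE 0.10, with an adjusted p of 1.54e-05), and was not called with library size alone. eif5b, which joins the subunits, was called higher with a normal tail, 0.36 (SE 0.12, with an adjusted p of 0.0135), with 30.9 and 34.5 CPM against 26.2 and 27.6 CPM in WT. It lost the call with DESeq2 (adjusted p = 0.0836), in the fit of all 10 libraries (0.29) and without normal-tail replicate 2 (0.28), WT replicate 1 (0.32) or WT replicate 2 (0.39). The 2 genes of eIF5A, a factor that carries the modified amino acid hypusine and helps the ribosome through difficult peptide bonds, went apart. eif5a had 596 and 562 CPM with CDT and 518 and 533 CPM with a normal tail, against 749 and 772 CPM in WT. It was lower by 0.32 and 0.46 on the log2 scale (adjusted p = 0.00171 and 1.24e-05), and stood at 0.14 and −0.01 with library size alone. EIF5A2 had 245 and 239 CPM and 257 and 255 CPM, against 239.6 and 224 CPM in WT. Its rise with a normal tail, 0.22 (SE 0.08, with an adjusted p of 0.0335), lost its call without either normal-tail library (0.21 and 0.23) or either WT library (0.27 and 0.17). In the fit of all 10 libraries it was 0.15 with an adjusted p of 0.201.

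Of the 15 tested genes named as elongation factors 7 were lower and 1 higher in CDT animals than in WT, and 8 were lower and none higher with a normal tail. The 15 are grouped by symbol. They include the eEF1A methyltransferases EEF1AKMT1, EEF1AKMT2 and EEF1AKMT4, the eEF2 kinase EEF2K and EEF1E1, which are not themselves elongation factors. Under library size alone 3 were lower and 4 higher with CDT, and 4 lower and 3 higher with a normal tail. Of the 5 genes grouped here with the eEF1B complex, EEF1E1 among them, 4 were lower in both comparisons with TMM, with medians over the 5 of −0.59 and −0.72. By library size alone, 2 were lower and 1 higher with CDT, and 3 lower and 1 higher with a normal tail. The delta subunit gene eef1da had 265 and 306 CPM with CDT and 288 and 266 CPM with a normal tail, against 473 and 502 CPM in WT. It was lower on the log2 scale, at −0.70 (SE 0.09, with an adjusted p of 5.5e-09) and −0.74 (SE 0.09, with an adjusted p of 1.26e-09). The exchange subunit EEF1B2 had 849.9 and 971 CPM and 819 and 907 CPM, against 1463 and 1530.2 CPM in WT, and was lower at −0.64 (SE 0.08, with an adjusted p of 2.31e-08) and −0.72 (SE 0.08, with an adjusted p of 1.24e-09). Both genes were also called lower with library size alone (−0.24 and −0.29 for eef1da, −0.19 and −0.27 for EEF1B2). EEF1G, the gamma subunit, had 2415 and 2777 CPM and 2349.8 and 2377 CPM, against 4088 and 4165 CPM in WT. It was lower in both, at −0.59 and −0.73, and its CDT call was lost with library size alone (−0.14). The fifth gene, EEF1E1, encodes a protein of the complex of tRNA synthetases and was not called with TMM. It had 39.6 and 46.9 CPM and 45.0 and 44.1 CPM, against 48.7 and 50.5 CPM in WT.

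EEF1AKMT1, a methyltransferase that modifies a lysine of eEF1A, was lower in both mutant groups, with 13.1 and 14.8 CPM with CDT and 13.9 and 13.3 CPM with a normal tail, against 24.2 and 26.7 CPM in WT. The log2 fold changes were −0.79 (SE 0.13, with an adjusted p of 2.31e-06) and −0.83 (SE 0.13, with an adjusted p of 1.69e-06), and −0.34 and −0.38, still called, with library size alone. eEF1A itself was carried by eef1a1l1, with 7651 and 8032 CPM with CDT and 7828 and 7528 CPM with a normal tail, against 10987 and 11090.4 CPM in WT. It was lower with TMM, at −0.42 (SE 0.08, with an adjusted p of 1.51e-05) and −0.45 (SE 0.08, with an adjusted p of 3.93e-06), but not with library size alone, at 0.04 and 0.00. The EEF1A1 copy ENSDARG00000039502 had 6.78 and 7.11 CPM and 5.94 and 7.87 CPM, against 7.13 and 8.07 CPM in WT. The copy ENSDARG00000069951 had 2.01 and 2.79 CPM and 1.86 and 1.97 CPM, against 2.98 and 1.88 CPM in WT. Both copies overlapped between mutants and WT in at least 1 comparison, and neither was called. eef1a1l3 and eef1a2 had at most 3 counts in any library at 2 dpf. Of the eEF2 genes, eef2b had 2140.1 and 1849 CPM with CDT and 1897 and 1926 CPM with a normal tail, against 2693 and 2832 CPM in WT. Its log2 values were −0.39 (SE 0.08, with an adjusted p of 0.000133) and −0.46 (SE 0.08, with an adjusted p of 1.3e-05) with TMM, and 0.06 and −0.01 with library size alone. EEF2 (ENSDARG00000035256) had 74.6 and 87.8 CPM and 60.9 and 77.0 CPM, against 75.5 and 69.6 CPM in WT. Its call with CDT, 0.24 (SE 0.10, with an adjusted p of 0.0489), was absent with DESeq2 (adjusted p = 0.203), in the fit of all 10 libraries (0.16) and when any 1 library other than CDT replicate 1 was left out (0.12 to 0.30). eef2a.1 had 14.1 and 12.6 CPM and 13.7 and 13.4 CPM, against 14.6 and 13.2 CPM in WT. eef2a.2 had 0.472 and 0.445 CPM and 0.464 and 0.328 CPM, against 1.25 and 0.751 CPM in WT, from at most 16 counts a library. EEF2K, the kinase that phosphorylates and stops eEF2, had 71.8 and 73.7 CPM with CDT and 66.0 and 68.4 CPM with a normal tail, against 86.1 and 90.5 CPM in WT. It was called lower with a normal tail (−0.32) and not with library size alone (0.13).

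Mutants with CDT and with a normal tail were compared to ask whether translation factors follow the tail form. None of the 78 tested members was called, against 0.952% of all genes (187 genes), 0.657% higher and 0.295% lower. Of the members, 3 had an unadjusted p under 0.05 and DESeq2 called none. The median log2 fold change was −0.03, and the values ran from −0.22 to 0.58. The approximate 95% interval, from the SE of each log2 fold change, lay within 0.5 of 0 for 73 of the 78 members and within 0.3 for 47. The libraries of the 2 tail forms did not overlap for 28 members, and 38.9% of all genes tested did not overlap. The widest gap was that of EEF1AKMT4, a methyltransferase of eEF1A, with 2.48 and 3.11 CPM with CDT against 1.39 and 2.23 CPM with a normal tail. This was 0.58 (SE 0.32, with an adjusted p of 0.544) on the log2 scale.

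Other parts of the translation machinery were counted beside the members at 2 dpf, from lists of known genes. With TMM 40.5% of all genes were called with CDT (20.0% higher, 20.4% lower) and 39.6% with a normal tail (19.2% higher, 20.4% lower). With library size alone 11136 and 10730 of all 19636 genes were called, 10214 and 9733 of them higher. No list count was tested against these shares. Of 80 tested cytosolic ribosomal protein genes 78 were lower in CDT animals than in WT and 77 with a normal tail, with medians of −0.83 and −0.85. On library size alone, 70 and 72 of them were called lower. With CDT, RPL11, RPS12 and rps20 were lower than in WT, at −1.19, −1.13 and −1.15 on the log2 scale. Of 7 termination and recycling factors 3 were lower with CDT and 2 with a normal tail, among them the rescue factor PELO (−0.49 and −0.46) and DENR (−0.47 and −0.40). By library size alone, 3 and 5 of the 7 were higher and none lower. Of 14 partners of the cap and the poly(A) tail 3 were higher and 2 lower with CDT, and 6 were higher and 3 lower with a normal tail. The poly(A)-binding protein PABPC4 was lower in both (−0.54 and −0.65). On library size alone, 11 of the list were higher with CDT, and 10 higher and 1 lower with a normal tail. Of 13 genes of mTORC1 and S6 kinase 1 was higher and 2 lower with CDT, and 1 higher and 3 lower with a normal tail. The kinase MTOR was higher, at 0.78 (SE 0.15, with an adjusted p of 3.61e-05) and 0.86 (SE 0.15, with an adjusted p of 1.08e-05), and RPS6, the ribosomal protein that S6 kinase phosphorylates, lower, at −0.79 and −0.81. Scaled by library size alone, 10 of this list were higher and 1 lower with CDT, and 8 higher and 1 lower with a normal tail. In the integrated stress response, the programme set off by the kinases of eIF2, 3 of 21 genes were higher and 7 lower with CDT, and 2 higher and 7 lower with a normal tail. The factor atf5a was higher (0.77 and 0.76) and the response genes CHAC1 (−0.48 and −0.71) and CEBPB (−0.68 and −0.74) lower. Scaled by library size alone, 12 of the 21 were higher and 1 lower with CDT, and 11 higher and 2 lower with a normal tail. Of 9 genes that make diphthamide on eEF2 or hypusine on eIF5A 7 were lower with CDT and 3 with a normal tail. Of 12 mitochondrial translation factors 3 were lower and 1 higher with CDT and 1 was lower with a normal tail. On library size alone, no gene of these last lists was lower, 2 mitochondrial factors were higher with CDT, and 4 of them and 1 diphthamide or hypusine gene were higher with a normal tail. A single gene of these lists, the poly(A)-binding protein pabpc1b, was called between the tail forms, higher with CDT at 0.45 (SE 0.10, with an adjusted p of 0.00467).

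Other measures moved with genotype at 2 dpf, and their part in the lower levels of the factors was not tested. The 3 exocrine pancreas markers measured of 6 listed were all lower, with sums of 2.83 to 3.24 CPM with CDT and 1.67 to 2.49 CPM with a normal tail, against 44.5 to 48.8 CPM in WT. All 5 liver markers were lower, with sums of 9327 to 10188 CPM and 9384 to 9690 CPM, against 17407 to 18940 CPM in WT. Of 5 muscle markers measured of 8 listed 4 were lower and 1 higher with CDT and 3 were lower and 1 higher with a normal tail, with sums of 18214 to 20272 CPM and 19227 to 19506 CPM, against 35379 to 38881 CPM in WT. Of 3 neuronal markers measured of 7 listed 2 were higher and 1 lower in both, with sums of 168 to 183 CPM and 161 to 174 CPM, against 134 to 138 CPM in WT. The 5 genes of proliferating cells summed to 603 to 630 CPM and 685 to 709 CPM, against 825 to 828 CPM in WT. The 3 red blood cell markers summed to 1590.5 to 1669 CPM and 1321 to 1366 CPM, against 2374 to 2432 CPM in WT. The 2 lens markers measured of 4 listed went the other way, with sums of 857 to 1028 CPM and 878 to 933 CPM, against 783 to 801 CPM in WT. All these sums are on TMM scaling. Those of proliferating cells differ by less than the TMM factors do, so their order depends on the scaling. The red blood cell sums with CDT differ from WT by about as much as the factors. No marker measured was at 0 in all libraries. The share of reads that did not align was 4.02% to 4.70% in the 4 mutant libraries and 6.24% and 6.72% in WT, and the share aligned more than once 4.95% to 6.31% in the mutants and 4.05% and 3.48% in WT. In whole animals, fewer cells of a type and less RNA per cell cannot be told apart.

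At 5 dpf few translation factors were called between rpgrip1l-/- and WT animals. With 2 libraries a group, this does not show that their levels were equal. 1 of 81 tested members was called, lower in rpgrip1l-/-, against 3.84% of all 20071 genes, 2.56% lower and 1.28% higher, and the median log2 fold change was −0.02. That member was the EIF4EBP3 copy ENSDARG00000041607, a 4E-BP, with 83.2 and 83.4 CPM in rpgrip1l-/- against 123 and 111 CPM in WT. Both mutant libraries were below both WT libraries, at −0.49 (SE 0.10, with an adjusted p of 0.0132) on the log2 scale (edgeR), and DESeq2 gave an adjusted p of 0.00642. Without WT replicate 1 the value was −0.41 and no member was called. Without WT replicate 2, 3 members were called, as in the fit of all 10 libraries. Of the 81 members 9 had an unadjusted p under 0.05, and the libraries did not overlap for 39, where 47.7% of all genes did not overlap. The approximate 95% interval lay within 0.5 of 0 for 65 members and within 0.3 for 36. The other 4E-BPs had 121 and 117 CPM in rpgrip1l-/- against 138 and 125 CPM in WT for eif4ebp1, and 321 and 306 CPM against 293 and 307 CPM for EIF4EBP2. For eif4ebp3 (ENSDARG00000054916) the levels were 49.4 and 51.8 CPM in rpgrip1l-/- against 67.3 and 61.1 CPM in WT, and none of these 3 was called.

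Members that differed with genotype at 2 dpf had these levels at 5 dpf, without a call. EIF4G1 had 70.7 and 80.5 CPM in rpgrip1l-/- against 81.0 and 75.4 CPM in WT. For EIF3A the levels were 342 and 364 CPM in rpgrip1l-/- against 395 and 412 CPM in WT, and for EIF3F 545 and 542 CPM against 699 and 624 CPM. The libraries of EIF4G1 overlapped, and those of EIF3A and EIF3F did not. eef1a1l1 had 14598 and 14846 CPM in rpgrip1l-/- against 15642 and 15226 CPM in WT, and eef2b had 4481 and 4487 against 4258 and 4734 CPM. Among the kinases of eIF2, EIF2AK3 had 24.8 and 23.1 CPM in rpgrip1l-/- against 19.9 and 19.5 CPM in WT. Levels were 13.4 and 14.4 CPM against 17.9 and 14.5 CPM for eif2ak1 and 0.975 and 1.12 CPM against 0.794 and 1.13 CPM for eif2ak2. In the integrated stress response list 3 of 21 genes were higher and 2 lower in rpgrip1l-/-, where 3.84% of all genes were called. The higher ones were ATF3 at 1.11 (SE 0.17, with an adjusted p of 0.00194), CEBPB at 0.89 (SE 0.11, with an adjusted p of 0.000375) and ppp1r15a, which encodes a subunit that helps to dephosphorylate eIF2, at 0.62 (SE 0.12, with an adjusted p of 0.00812). Of 80 ribosomal protein genes 2 were lower. No gene was called in the lists of termination and recycling factors, cap and poly(A) tail partners, mTORC1 and S6 kinase, diphthamide and hypusine synthesis, and mitochondrial translation factors. The 3 exocrine pancreas markers were all lower, with sums of 1251 to 2828 CPM in rpgrip1l-/- against 4002 to 5218 CPM in WT. Marker sums were also lower for liver (4911 to 7429 against 8730 to 9054 CPM) and muscle (52639 to 53281 against 60490 to 74531 CPM). They were higher for neurons (161 to 172 against 128 to 133 CPM), red blood cells (691 to 792 against 517 to 635 CPM) and proliferating cells (401 to 449 against 355 to 387 CPM). The lens sums overlapped (2849 to 3149 against 2931 to 3065 CPM). The part of these markers in the 4E-BP difference was not tested.

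Between 2 and 5 dpf the members changed in both directions, and a few copies changed far more than the others. In rpgrip1l-/- 42 of 80 tested members were higher and 14 lower at 5 dpf than at 2 dpf, against 62.7% of all 21016 genes called, 33.1% higher and 29.6% lower. In WT 22 were higher and 29 lower, against 60.8% of all genes called, 31.3% higher and 29.5% lower. The median log2 fold change was 0.25 in rpgrip1l-/- and −0.01 in WT, beside 0.00 and 0.03 for all genes. Scaled by library size alone, 29 members were higher and 32 lower in rpgrip1l-/-, and 26 higher and 25 lower in WT. Of all 21016 genes on that scaling 14317 were called in rpgrip1l-/-, 4899 of them higher, and 12659 in WT, 7283 of them higher. The libraries of the ages did not overlap for 65 members in rpgrip1l-/- and 63 in WT, against 69.4% and 79.5% of all genes. The mutants at 2 dpf enter as the mean of both tail forms. Cell type markers also moved with age, and their part in the changes was not tested. On TMM scaling, 5 muscle markers summed to 52639 to 53281 CPM in rpgrip1l-/- and 60490 to 74531 CPM in WT at 5 dpf. These sums were above those given for 2 dpf, as were those of the pancreas and lens markers. The sums of liver, red blood cell and proliferating cell markers were below those given for 2 dpf in each genotype. They were 4911 to 7429, 691 to 792 and 401 to 449 CPM in rpgrip1l-/- at 5 dpf. In WT they were 8730 to 9054, 517 to 635 and 355 to 387 CPM.

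Several elongation factor copies rose far more than the main genes of their families. EEF2 had 481 and 543 CPM in rpgrip1l-/- at 5 dpf, against 74.6 and 87.8 CPM with CDT and 60.9 and 77.0 CPM with a normal tail at 2 dpf. In WT it had 595 and 587 CPM at 5 dpf, against 75.5 and 69.6 CPM at 2 dpf. On the log2 scale it rose by 2.77 (SE 0.09, with an adjusted p of 1.47e-20) in rpgrip1l-/- and 3.02 (SE 0.11, with an adjusted p of 1.42e-18) in WT. The main gene, eef2b, had 4481 and 4487 CPM in rpgrip1l-/- and 4258 and 4734 CPM in WT at 5 dpf. It rose by 1.20 and 0.70 on the log2 scale (adjusted p = 2.05e-14 and 4.78e-08). eef2a.1, at 15.8 and 14.7 CPM and 17.1 and 13.5 CPM at 5 dpf, was not called, nor was eef2a.2, at 0.375 and 0.223 CPM and 0.992 and 1.07 CPM. The EEF1A1 copy ENSDARG00000039502 had 47.7 and 47.3 CPM in rpgrip1l-/- and 42.5 and 46.4 CPM in WT at 5 dpf. It rose by 2.76 (SE 0.11, with an adjusted p of 1.3e-18) and 2.55 (SE 0.14, with an adjusted p of 2.69e-15) on the log2 scale. The EEF1A1 copy ENSDARG00000069951 had 10.1 and 7.74 CPM and 10.3 and 10.2 CPM at 5 dpf, and rose by 2.06 (SE 0.20, with an adjusted p of 1.2e-09) and 2.05 (SE 0.25, with an adjusted p of 4.06e-08). The gene with most counts, eef1a1l1, rose less, by 0.92 in rpgrip1l-/- and 0.48 in WT (adjusted p = 2.29e-13 and 1.72e-06). eef1a2 had 6 and 10 counts in rpgrip1l-/- and 10 and 28 in WT at 5 dpf, against at most 3 in any library at 2 dpf, and was not tested. In eEF1B, eef1da rose by 1.79 in rpgrip1l-/- and 1.17 in WT, to 978 and 962 CPM and 1143 and 1055 CPM. EEF1E1 had the lowest log2 fold change of the tested members in both genotypes, with 17.3 and 15.6 CPM in rpgrip1l-/- at 5 dpf, against 39.6 and 46.9 CPM with CDT and 45.0 and 44.1 CPM with a normal tail. In WT it had 16.1 and 14.8 CPM at 5 dpf, against 48.7 and 50.5 CPM at 2 dpf. The log2 difference was −1.42 (SE 0.10, with an adjusted p of 2.42e-12) in rpgrip1l-/- and −1.68 (SE 0.11, with an adjusted p of 5.33e-13) in WT.

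**Figure D3:**
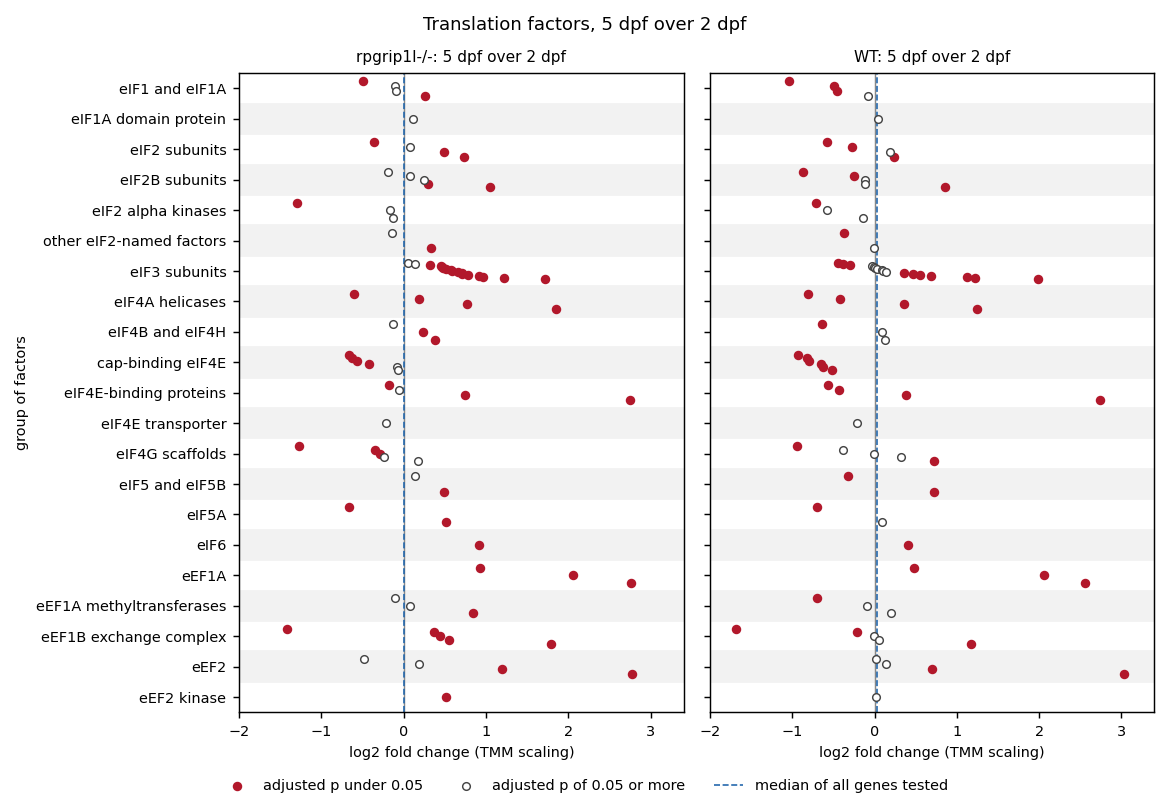
Each point is a translation factor gene, placed by its log2 fold change of 5 dpf over 2 dpf on TMM scaling (x axis) and its group of factors (y axis), in rpgrip1l-/- on the left and WT on the right. Filled points have an adjusted p under 0.05 and the dashed line is the median of all genes tested. EEF2, an EEF1A1 copy and an eIF4E-binding protein reach the right end in both panels, and the cap-binding eIF4E genes lie left of 0. With library size alone, which is not drawn, the eIF4E genes were also lower, and so was the median of all genes in rpgrip1l-/-.

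The cap-binding genes fell with age. All 6 tested eIF4E genes were lower at 5 dpf in WT, with log2 fold changes from −0.93 to −0.51, and 4 of 6 were lower in rpgrip1l-/-. By library size alone, all 6 were lower in both. In rpgrip1l-/- that scaling moved the median of all genes to −0.32, so it was no test of lower genes. In WT the median moved the other way, to 0.14. EIF4E had 17.6 and 17.5 CPM in rpgrip1l-/- and 17.6 and 19.2 CPM in WT at 5 dpf, at −0.67 and −0.82 on the log2 scale relative to 2 dpf. eif4e1c had 37.4 and 39.6 CPM and 40.2 and 37.4 CPM at 5 dpf (−0.63 and −0.80 on the log2 scale). EIF4E3 had 34.5 and 33.4 CPM and 34.5 and 34.6 CPM (−0.56 and −0.62). EIF4E2 had 13.5 and 15.9 CPM in rpgrip1l-/- and 12.04 and 12.5 CPM in WT at 5 dpf, at −0.42 (SE 0.11, with an adjusted p of 0.00189) and −0.93 (SE 0.13, with an adjusted p of 4.92e-07) on the log2 scale. The mutant value lost its call without replicate 1 of rpgrip1l-/- at 5 dpf (−0.31). eif4e2rs1, at 31.9 and 29.2 CPM and 27.5 and 23.7 CPM, and eif4eb, at 15.2 and 13.4 CPM and 12.8 and 13.2 CPM at 5 dpf, were called lower in WT (−0.65 and −0.51) and not in rpgrip1l-/-.

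The 4E-BPs did not move as 1 group. The copy eif4ebp3 (ENSDARG00000054916) had 49.4 and 51.8 CPM in rpgrip1l-/- and 67.3 and 61.1 CPM in WT at 5 dpf. Relative to 2 dpf it rose by 2.74 (SE 0.10, with an adjusted p of 3.28e-19) and 2.73 (SE 0.12, with an adjusted p of 5.58e-17) on the log2 scale. The EIF4EBP3 copy ENSDARG00000041607 rose by 0.75 in rpgrip1l-/- and 0.39 in WT. eif4ebp1 fell by 0.56 on the log2 scale in WT (adjusted p = 9.2e-06) and was not called in rpgrip1l-/-. EIF4EBP2 fell by 0.43 in WT. Its call in rpgrip1l-/-, −0.17 (SE 0.07, with an adjusted p of 0.0435), was lost with a replicate block (adjusted p = 0.0544), with at least 10 counts in every library (0.121) and with the libraries of the mutants fitted alone (0.0522). It was also lost when either library of rpgrip1l-/- at 5 dpf, CDT replicate 2, or either normal-tail or WT library at 2 dpf was left out (−0.21 to −0.14). The copy eif4ebp3 took 8.59% to 9.29% of the 4E-BP counts in rpgrip1l-/- and 10.1% to 10.8% in WT at 5 dpf, against 1.16% to 1.61% in the mutants and 1.35% to 1.40% in WT at 2 dpf.

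Shares within a family do not depend on the scaling of the libraries. EEF2 took 9.66% to 10.8% of the eEF2 counts in rpgrip1l-/- and 11% to 12.2% in WT at 5 dpf, against 3.09% to 4.51% in the mutants and 2.39% to 2.71% in WT at 2 dpf. The eIF4A family holds the genes grouped by that symbol, EIF4A3 included. In it EIF4A2 took 5.45% to 5.61% in rpgrip1l-/- and 5.03% to 5.55% in WT at 5 dpf. At 2 dpf it took 2.02% to 2.10% in the mutants and 2.22% to 2.28% in WT. The share of eif4a1a moved the other way, to 15.9% to 16.6% in rpgrip1l-/- and 19.2% to 19.8% in WT at 5 dpf, against 29.4% to 35.7% in the mutants and 34.2% to 34.8% in WT at 2 dpf. The log2 fold change of EIF4A2 was 1.85 (SE 0.09, with an adjusted p of 9.05e-17) in rpgrip1l-/- and 1.25 (SE 0.10, with an adjusted p of 2.72e-11) in WT, and that of eif4a1a was −0.60 and −0.81. Among the eIF4G scaffolds EIF4G1 took 24.6% to 29.3% in rpgrip1l-/- and 26.3% to 28.1% in WT at 5 dpf, against 16.2% to 17.9% in the mutants and 14.8% to 15.1% in WT at 2 dpf. The EIF4G2 copy ENSDARG00000020377 took 20.6% to 24.3% and 22.5% at 5 dpf, against 37.2% to 40.3% in the mutants and 38.1% to 40.1% in WT at 2 dpf. The 95% Wilson interval of a share in a single library was at most 1.65 percentage points to either side, and it covers counting error only. Copies differ in length, so the shares compare libraries and not the abundance of the copies.

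**Figure D4:**
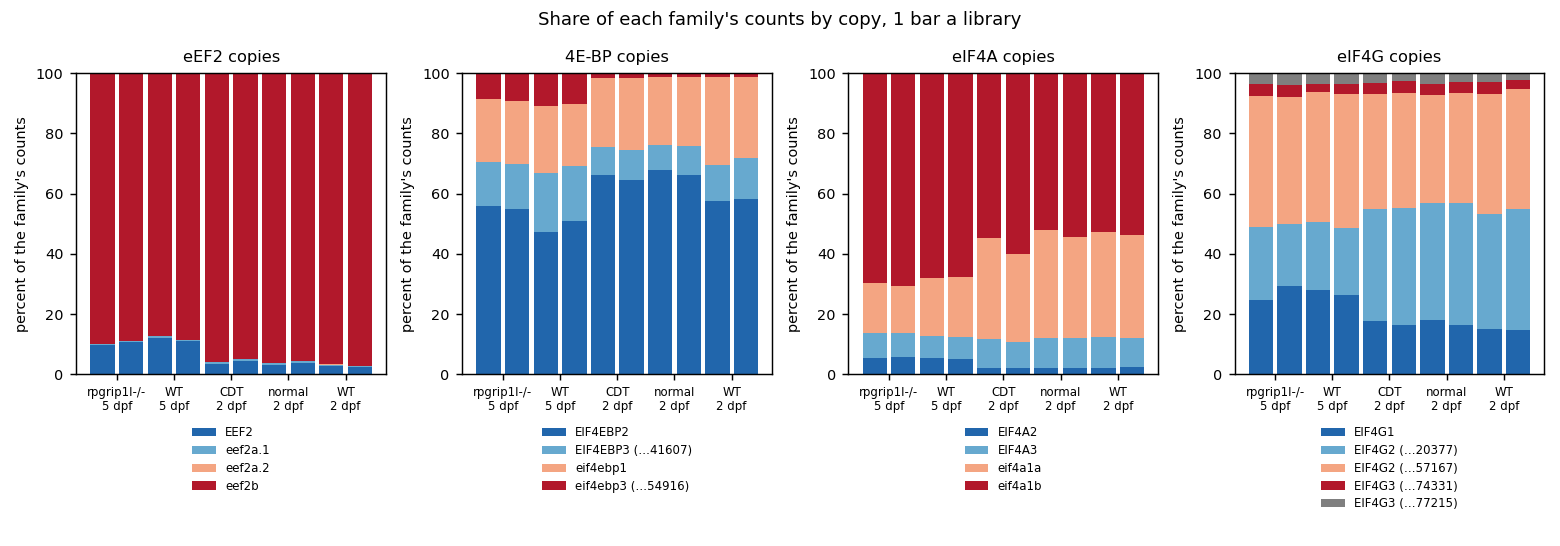
Percent of a family's counts (y axis, 0 to 100) that fell on each of its gene copies, with 1 bar for each of the 10 libraries, grouped along the x axis as rpgrip1l-/- and WT at 5 dpf and CDT, normal tail and WT at 2 dpf. Copies that share a symbol carry the last digits of their identifier. EEF2, eif4ebp3, EIF4A2 and EIF4G1 take larger shares in the 4 libraries at 5 dpf, and eif4a1a and an EIF4G2 copy take smaller ones.

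Of the other initiation factors, the eIF3 genes rose in rpgrip1l-/-, where 15 of 17 were higher at 5 dpf and none lower, while in WT 7 were higher and 3 lower. On library size alone, 12 were higher and 2 lower in rpgrip1l-/-, and 8 higher and 3 lower in WT. EIF3CL, a gene for the c subunit, rose by 1.21 in rpgrip1l-/- and 1.13 in WT, and EIF3A by 0.71 and 1.22. EIF2B5, the catalytic subunit of eIF2B, rose by 1.04 and 0.85, and EIF6 by 0.91 and 0.41. The EIF4G2 copy ENSDARG00000020377 fell to 69.99 and 56.6 CPM in rpgrip1l-/- and 64.8 and 64.6 CPM in WT, at −1.27 (SE 0.09, with an adjusted p of 9.2e-13) and −0.94 (SE 0.10, with an adjusted p of 3.2e-09). EIF1B, a close relative of eIF1, had 116 and 119 CPM in rpgrip1l-/- and 119.8 and 111 CPM in WT at 5 dpf, at −0.50 and −1.04 (SE 0.09, with an adjusted p of 6.39e-11) on the log2 scale. EIF5A2 was lower at 5 dpf in both, with 151 and 162 CPM and 144 and 141 CPM, at −0.67 (SE 0.08, with an adjusted p of 2.2e-08) and −0.70 (SE 0.09, with an adjusted p of 9.54e-08). eif5a, at 753 and 822 CPM and 799.6 and 821 CPM, was called higher in rpgrip1l-/- (0.51) and not called in WT. Of the kinases of eIF2, eif2ak2 was lower at 5 dpf in rpgrip1l-/-, at −1.29 (SE 0.33, with an adjusted p of 0.00139), and EIF2AK3 was lower in WT, at −0.71 (SE 0.11, with an adjusted p of 5.56e-06).

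**Figure D5:**
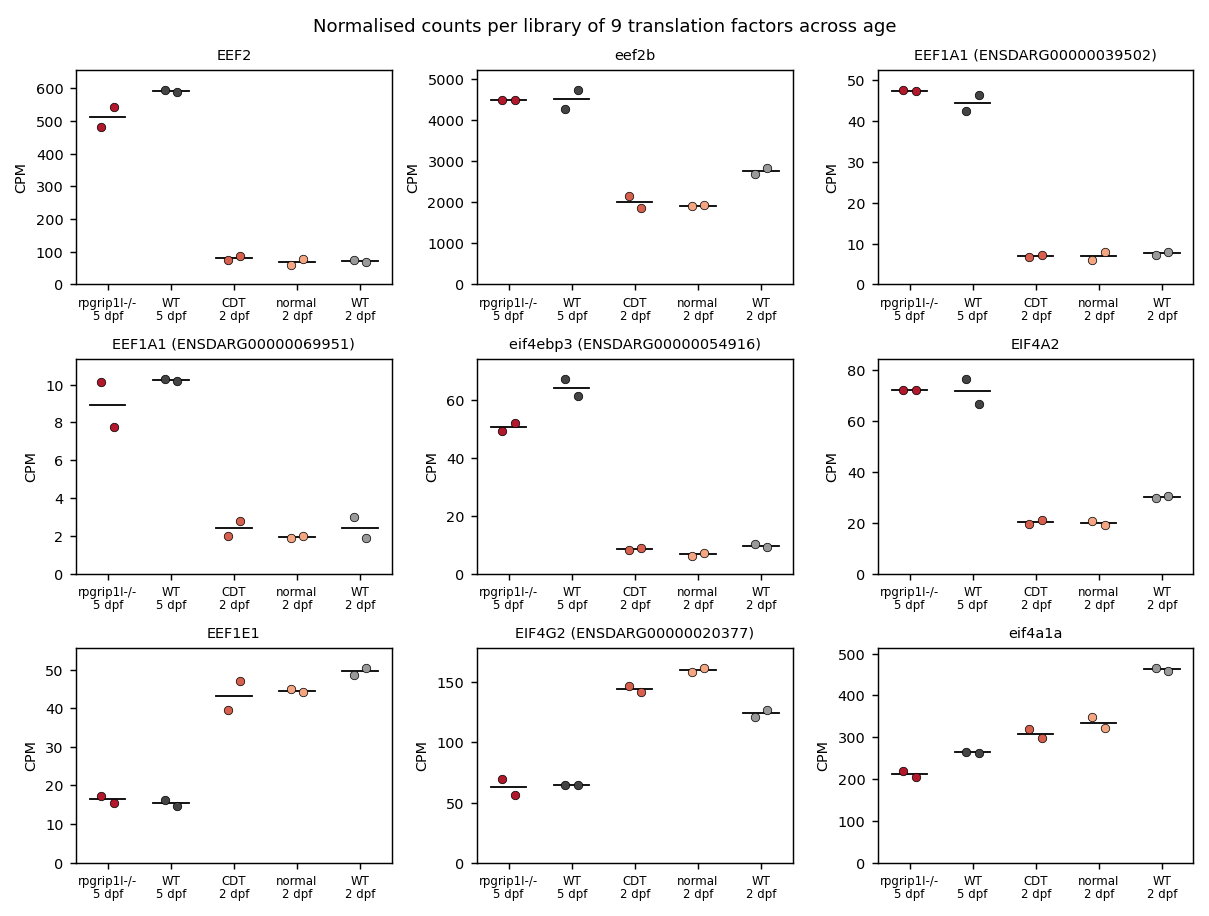
TMM-scaled CPM (y axis, from 0) of 9 translation factor genes in each of the 10 libraries (points) with the mean of the 2 libraries of a group (line). Groups along the x axis are rpgrip1l-/- and WT at 5 dpf, and CDT, normal tail and WT at 2 dpf. EEF2, both EEF1A1 copies, eif4ebp3 and EIF4A2 are higher in all 4 libraries at 5 dpf, and EEF1E1, an EIF4G2 copy and eif4a1a are lower.

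Genes of the surrounding pathway lists also changed with age. With TMM 62.7% of all genes were called in rpgrip1l-/- (33.1% higher, 29.6% lower) and 60.8% in WT (31.3% higher, 29.5% lower). With library size alone 14317 and 12659 of all 21016 genes were called, 4899 and 7283 of them higher. No list count was tested against these shares. Of 80 ribosomal protein genes 65 were higher and 3 lower at 5 dpf in rpgrip1l-/-, and 2 were higher and 63 lower in WT. By library size alone, 27 were higher and 15 lower in rpgrip1l-/-, and 4 higher and 58 lower in WT. Of 13 genes of mTORC1 and S6 kinase 8 were higher and 3 lower in rpgrip1l-/-, and 6 higher and 2 lower in WT. DDIT4, an inhibitor of mTORC1, was higher at 2.02 (SE 0.08, with an adjusted p of 3.81e-18) and 1.85 (SE 0.10, with an adjusted p of 4.34e-15). Of 21 integrated stress response genes 9 were higher and 7 lower in rpgrip1l-/-, and 10 higher and 7 lower in WT. CHAC1 was higher at 2.23 and 2.09, and CEBPB at 3.09 in rpgrip1l-/-. Of 14 cap and poly(A) tail partners 6 were higher and 2 lower in each, with LARP1, which binds messages for ribosomal proteins, at 1.07 and 1.30. The termination and recycling factors gave 2 higher and 1 lower of 7 in rpgrip1l-/- and 1 higher and 2 lower in WT. Diphthamide and hypusine synthesis gave 6 and 3 higher of 9 with none lower. The mitochondrial translation factors gave 4 higher of 12 in rpgrip1l-/- and 1 higher and 4 lower in WT. On library size alone, the termination and recycling factors gave 1 higher and 4 lower in rpgrip1l-/- and 1 higher and 2 lower in WT, and the cap and poly(A) tail partners 3 higher and 4 lower in rpgrip1l-/- and 8 higher and 1 lower in WT. On the same scaling the stress response list gave 7 higher and 10 lower in rpgrip1l-/- and 10 higher and 6 lower in WT, and the mTORC1 list 6 higher and 4 lower and 6 higher and 1 lower. Diphthamide and hypusine synthesis gave 5 higher and 2 lower in rpgrip1l-/- and 4 higher in WT, and the mitochondrial factors 3 higher and 6 lower and 2 higher and 3 lower.

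The genotype effect at 5 dpf was compared with that at 2 dpf in a single test over all 10 libraries, as the difference between rpgrip1l-/- and WT at 5 dpf minus that at 2 dpf. It was called above 0 for 37 of 80 tested members and called below 0 for 2, against 23.4% of all genes called, 14.7% above and 8.74% below. The median difference was 0.34, beside 0.06 for all genes. With library size alone 1 member was called above 0 and 10 were called below, with a median of −0.08 over the tested members. Of all 21016 genes 5926 were called on that scaling, 634 of them above 0, and the median of all genes was −0.36. The highest values were 0.83 for the EIF3H copy ENSDARG00000036116, 0.78 for EEF1AKMT1, 0.70 for EIF3F (SE 0.11, adjusted p = 7.9e-05) and 0.68 for the EIF3H copy ENSDARG00000102452. The 2 called below 0 were EIF4G1, at −0.55 (SE 0.14, with an adjusted p of 0.00455), and EIF3A, at −0.51 (SE 0.12, with an adjusted p of 0.00216). Both were also called below 0 with library size alone, but typical genes moved down on that scaling, so it was no test of them. EIF3F remained above 0 there. The EIF3H copy ENSDARG00000036116 lost its call without WT replicate 2 at 2 dpf (0.71) and with library size alone (0.41). Both EEF1AKMT1 (0.36) and the EIF3H copy ENSDARG00000102452 (0.26) lost it with library size alone. Of the lists, the ribosomal protein genes had 76 of 80 above 0, with a median of 0.78, and 60 above 0 with library size alone.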

How the data were processed

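Poly(A)-selected RNA of 10 pools of 30 to 35 zebrafish, 2 pools for each of 5 groups, was sequenced as paired reads of 150 bp. The authors trimmed reads with TrimGalore 0.4.4, aligned them with STAR 2.7.3a to GRCz11 and deposited raw counts per Ensembl gene from HTSeq 0.12.3 at its default setting, which counts a read only on the strand of its gene. Whether the library kit marks strand is not given in the sources used here. Of the reads tallied, 42.5% to 44.3% fell on genes, 45.6% to 47.3% on no feature, 0.455% to 0.545% were ambiguous and 3.20% to 6.31% aligned more than once. The 5 counters for such reads were left out of library sizes and tests. Zebrafish symbols were matched to 28988 of 32057 identifiers through a table of gene names; 60 member symbols are in capitals there, and copies that share a symbol may share reads that HTSeq left out. No coordinates or sequences were used.

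Counts were tested with edgeR 4.0.16 (quasi-likelihood, TMM, filterByExpr by group) in R 4.3.3, with Benjamini-Hochberg adjustment over all genes tested and a threshold of 0.05. The fits were also run on simulated counts in which few genes changed, which does not test the scaling where many genes change. The 3 comparisons at 2 dpf were fitted on the 6 libraries of that age, the comparison at 5 dpf on its 4, and the comparisons across age on all 10. Standard errors were taken from the log2 fold change and its F statistic. Alternatives were DESeq2 1.42.0, scaling by the upper quartile or by library size alone, keeping all genes or only those with 10 or more counts throughout, a replicate block, each library left out in turn and fits of other sets of libraries; with 1 library left in a group, it is assumed to vary like the other groups. Nothing in the labels says how the 2 pools of a group are related beyond being separate pools, so p-values measure the spread between pools.

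The members and gene lists were chosen with earlier results of these data known. Genes named are, per comparison, up to 4 called members in each direction with 1 CPM or more on average and groups that do not overlap (a condition dropped for the difference between genotype effects), all members of the eEF1A, eEF2, 4E-BP, eIF4E, eIF5A and eIF2 kinase families, and up to 3 called genes of each other list. Other members with values, among them EIF3A, the EIF4G2 copies, EEF1B2, EEF1G, eef1da, EIF6, eif5b, EEF2K, EIF3CL, EIF4A2, eif4a1a and EIF2B5, were chosen after their values were seen.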

Additional observations from a re-analysis of the deposited data

Results flagged for a closer look

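The difference between rpgrip1l-/- and WT was not the same at 5 dpf as at 2 dpf for 13 of the named members, by the test of that difference over all 10 libraries (edgeR, adjusted p under 0.05). The naming rule used the calls of this same test for both EIF3H copies, EEF1AKMT1, EIF3F, EIF3A and EIF4G1, so these calls are no independent result. Of all 80 tested members 39 were called, against 23.4% of all genes. On the log2 scale the effect at 5 dpf minus that at 2 dpf was 0.83 for the EIF3H copy ENSDARG00000036116, 0.78 for EEF1AKMT1, 0.70 for EIF3F, 0.68 for the EIF3H copy ENSDARG00000102452, 0.58 for EIF2AK3 and 0.58 for eif4e2rs1. It was 0.51 for EIF4E2, 0.51 for eif4ebp1, 0.50 for eef2b, 0.44 for eef1a1l1 and 0.42 for eif5a. EIF3A, at −0.51, and EIF4G1, at −0.55, were below 0. EIF3F, EIF3A and EIF4G1 were also called with library size alone, and the other 10 were not. That scaling moved typical genes down, so it was no test of EIF3A and EIF4G1, which lie below 0. The value of EIF4E2 lost its call in 6 of the 10 fits that left out a library, from 0.39 to 0.54 in those fits, and also with DESeq2 (adjusted p = 0.0857) and upper quartile scaling (0.0888). That of eif4ebp1 lost it without WT replicate 1 at 2 dpf (0.41). With 2 libraries in a group no single library could be tested as standing apart.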

How the results depend on the processing

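The scaling of the libraries was the choice that mattered most. TMM and library size alone gave opposite balances of higher and lower members at 2 dpf, as printed in the report. With library size alone most of all genes called were higher there too. In the difference between genotype effects 39 members were called with TMM and 11 with library size alone (1 above and 10 below 0). Of all genes 4917 were called with TMM and 5926 with library size alone, 634 of the latter above 0. On this scaling the log2 fold change turned to 0.18 for EIF2AK3, 0.0353 for eef1a1l1, 0.0620 for eef2b, 0.15 for eif4e2rs1 and 0.14 for eif5a in CDT against WT, to 0.000495 for eef1a1l1 in normal tail against WT and to −0.00153 for eif5a in the difference between genotype effects, none of them called. The cause was not tested. Leaving out 1 library at a time gave 33 to 48 called members for CDT against WT (33 without WT replicate 2), 34 to 47 for normal tail against WT, 0 to 0 between the tail forms, 0 to 3 at 5 dpf (0 without WT replicate 1, 3 without WT replicate 2), 52 to 58 for age in rpgrip1l-/-, 46 to 52 for age in WT and 28 to 42 for the difference between genotype effects. In the fit of all 10 libraries 3 members were called at 5 dpf. With the replicate block, the counts were 0 between the tail forms, 51 for CDT against WT, 47 for normal tail against WT, 1 at 5 dpf, 55 and 50 for age in rpgrip1l-/- and WT, and 38 for the difference between genotype effects; the libraries share only a number, as deviations of same-numbered libraries correlated at −0.0998 to 0.0335. Of 109 results for named members, 99 kept their call with DESeq2, 106 with upper quartile scaling, 107 with no filter on low counts, 106 with at least 10 counts in every library, 108 with the replicate block and 83 with library size alone. Of the results within 1 age 36 kept their call in the fit of all 10 libraries and 9 lost it, and of those across age 50 kept it with the libraries compared fitted alone and 1 lost it. Depth limits the members with few counts, such as eif2ak2, eef2a.2 and eef1a2.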
